A study of Mus musculus with 2 samples.

Results

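Endothelial-like cells made up 695 of the 15803 cells kept from the mouse embryonic stem cell line D3, taken through cardiomyocyte differentiation for 6 days. They were 285 of 6354 cells in the library of control cells, labelled wild type, and 410 of 9449 cells in the library of cells with Zbtb16 knocked out. A cell was kept with at least 15000 unique molecular identifiers (UMIs, each standing for a captured transcript), at least 500 genes and at most 10% of UMIs from mitochondrially encoded genes. It was called endothelial-like when at least 5 of 7 genes, namely Cdh5, Cldn5, Esam, Tie1, Plvap, Sox18 and Pecam1, each had at least 1 UMI. The members were thus selected on measured values, and the 15108 cells that did not meet the rule are called the remaining cells. Both libraries came from the D3 line under the cardiomyocyte protocol, harvested on day 6 with trypsin and passed through a strainer, and the study asked which subpopulation of cardiovascular progenitors Zbtb16 affects. How the knockout was made, and whether it was 1 clone, was not given in the sources used here. With 1 library per group no difference between the genotypes could be tested, so each value describes these 2 libraries, and intervals cover counting error only. Differences between the genotypes and between the libraries themselves cannot be told apart.

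Endothelial cells line blood vessels and, as the endocardium, the inside of the heart. In the embryo they arise from mesoderm that expresses the VEGF receptor gene Kdr, under the ETS factor Etv2, and then depend on the ETS factors Erg and Fli1 and on Sox7, Sox17 and Sox18. Endocardial cells share this programme and also express genes such as Nfatc1, Npr3 and Gata4, and they signal to the heart muscle through BMP, Notch and neuregulin. Zbtb16 encodes PLZF, a zinc finger transcription factor.

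Few cells of either library stood near the limit of the selection rule. In the control, 251 cells had all 7 markers, 27 had 6 and 7 had 5, while 5 cells had 4 and 4565 cells had none. In the knockout, 316 cells had all 7 markers, 76 had 6 and 18 had 5, while 17 had 4 and 4819 had none. The plot of cells by number of markers shows this as a trough between 3 and 5 markers in each library, which describes the genes of the rule only. Cells just inside the rule, with 5 markers, held a median of 18 (control) and 13.5 (knockout) marker UMIs, and cells just outside it, with 4 markers, held 9 and 10.

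**Figure D1:**
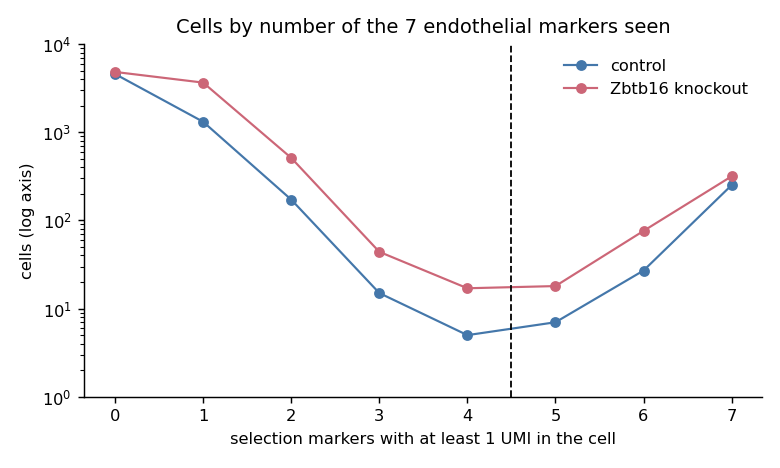
Number of cells (log axis) by how many of the 7 selection markers had at least 1 UMI, with control cells in blue and Zbtb16 knockout cells in red. The dashed line is the selection rule; 251 control and 316 knockout cells carried all 7 markers, and 5 and 17 cells lay just left of the line with 4.

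The share of endothelial-like cells was 4.49% in the control (95% Clopper-Pearson interval 3.99 to 5.02) and 4.34% in the knockout (3.94 to 4.77). The intervals cover the counting of cells within a library, and no difference between the genotypes can be read from them. With at most 5% of UMIs from mitochondrially encoded genes the knockout share was higher by 1.00 percentage points. When each cell was first thinned to 15000 UMIs, so that depth could not add markers, 253 control and 375 knockout cells met the rule, shares of 3.98% and 3.97%. Members were deeper than the remaining cells, with a median of 52348 UMIs in control and 39897 in knockout members, against 36695 and 30191. The 2 libraries shared 16 barcodes among their cells and none among their endothelial-like cells.

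Levels are given as CPM, the summed UMIs of the members scaled to a total of 1000000. Cdh5, the VE-cadherin of endothelial junctions, stood at 254 CPM in control members and 377 CPM in knockout members, against 0.513 and 1.12 CPM in the remaining cells. Cldn5, a tight junction claudin, stood at 141 and 168 CPM, and the junction protein gene Esam at 190 and 220 CPM. Tie1, a receptor tyrosine kinase, stood at 115 and 128 CPM, Plvap, of the diaphragms of fenestrae and caveolae, at 283 and 222 CPM, and the transcription factor gene Sox18 at 391 and 297 CPM. Pecam1, the adhesion molecule CD31, stood at 133 and 202 CPM. It was also the marker least confined to the members, with 3.81 CPM in the remaining control cells and 20.1 CPM in the remaining knockout cells, where 23.2% of thinned cells had a UMI of it. The other 6 markers were seen in 0.277% to 1.98% of thinned remaining cells of either library. Since these genes selected the cells, these levels only describe the members, and they do not bear on how the genotypes differ.

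Genes outside the 7 that led the members included other genes of endothelium. Of 7957 genes with a mean of at least 10 CPM over the members of both libraries, 804 genes, or 10.1%, were at least 1.5-fold higher in members than in remaining cells in both libraries. Of 28 measured endothelial surface and junction genes from a list of other such genes, 25 were among them. The 20 genes with the highest fold over remaining cells, taking the lower of the 2 libraries, were Ctla2a, Igf1, Rasip1, Icam2, Ramp2, Mmrn2, Rhoj, Emcn, Cd93, Fli1, Ctla2b, Dusp2, Sox7, Cd34, Lmo2, Ptprb, Bcl6b, Erg, Calcrl and Lyl1. Rasip1, which the vascular lumen needs, was 73.9-fold higher in control members and 84.4-fold higher in knockout members. Mmrn2, which binds the lectin Clec14a on endothelium, was 90.8-fold and 63.4-fold higher, and Emcn, a sialomucin of venous and capillary endothelium, 105-fold and 58.7-fold. These folds come from cells that were chosen by linked markers and carry no test.

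ETS factors bind DNA at a GGAA core, and Fli1 and Erg are among the 20 genes, so the promoters of these genes were searched for the letters AGGAAG on either strand. In RefSeq promoters of build GRCm38.p6, matched by symbol and read over the 250 bases before the start, 11 of the 20 genes had an entry, with 14 promoters. Of these, 10 held the letters (71.4%), against 29.5% of all 32851 promoters of that length. The 14 promoters are not independent: those of Ctla2a overlap, Ctla2b is alike in sequence, and Erg has several. The genes were also ranked in cells chosen by markers. The shares are thus a description, and whether they differ was not tested. Of the 7 selection genes 2 had an entry, Tie1 with a match and Cldn5 without. The promoters of Tie1, Rasip1, Emcn and Calcrl, picked from those with a match, are shown 5′ to 3′ on the strand of the gene. They are examples with a selection marker, a lumen gene, a mucin and a receptor. Capitals mark the letters, as CTTCCT where the match is on the other strand.
Tie1, chr4:118489850-118490099, minus strand: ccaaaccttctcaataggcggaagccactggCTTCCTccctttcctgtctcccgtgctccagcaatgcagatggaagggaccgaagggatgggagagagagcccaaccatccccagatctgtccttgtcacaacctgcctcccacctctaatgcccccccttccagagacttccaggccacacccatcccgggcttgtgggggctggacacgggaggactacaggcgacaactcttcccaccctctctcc
Rasip1, chr7:45627287-45627536, plus strand: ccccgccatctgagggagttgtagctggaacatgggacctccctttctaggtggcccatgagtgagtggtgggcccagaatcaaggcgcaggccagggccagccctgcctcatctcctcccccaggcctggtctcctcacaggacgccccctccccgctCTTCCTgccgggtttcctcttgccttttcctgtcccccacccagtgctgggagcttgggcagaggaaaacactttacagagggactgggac
Emcn, chr3:137340828-137341077, plus strand: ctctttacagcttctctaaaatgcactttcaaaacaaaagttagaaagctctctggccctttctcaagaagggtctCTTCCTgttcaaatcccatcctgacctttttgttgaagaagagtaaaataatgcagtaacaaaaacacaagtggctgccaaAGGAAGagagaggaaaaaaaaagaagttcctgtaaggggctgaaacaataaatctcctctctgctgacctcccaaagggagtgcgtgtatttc
Calcrl, chr2:84425267-84425516, minus strand: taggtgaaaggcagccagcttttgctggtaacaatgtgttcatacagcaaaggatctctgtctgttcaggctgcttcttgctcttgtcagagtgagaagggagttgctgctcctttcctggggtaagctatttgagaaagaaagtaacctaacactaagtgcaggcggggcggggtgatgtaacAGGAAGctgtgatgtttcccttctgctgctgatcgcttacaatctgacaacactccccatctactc
The match lay 219 bases before the start in Tie1, 91 in Rasip1 and 66 in Calcrl, and Emcn had matches at 174 and 93 bases. A match is a run of letters and was not shown here to be bound.

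Zbtb16 itself stood at 19.2 CPM in control members, from 340 UMIs in 178 of the 285 cells. In knockout members it stood at 0.145 CPM, from 3 UMIs in 3 of the 410 cells. A difference of at least 1.5-fold in CPM + 1 is called higher or lower in what follows, a threshold of size and not of a test. Of the 7957 genes, 822 (10.3%) were higher and 367 (4.61%) were lower in knockout members, and the median log2 ratio over all of them was 0.02. Long transcripts tended to be higher in the knockout: genes with transcripts of at least 4743 bases had a median log2 ratio of 0.34, and those of at most 1922 bases one of -0.19. After a lowess correction on transcript length 443 genes (5.57%) were higher and 375 (4.71%) lower. The correction thus moved the count of higher genes by over 1.5 times and that of lower genes by less.

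More genes of the endocardial list were lower than higher in knockout endothelial-like cells. Of 17 measured genes 9 were lower, 2 higher and 6 between, where 4.61% of all genes were lower and 10.3% higher. The median log2 ratio was -0.62, against 0.02 for all genes and -0.21 for the same genes in remaining cells. The list was chosen with earlier results of these data known, so the count is a description only. All 20 listed genes summed to 1407 CPM in control and 1453 CPM in knockout members, of which Hapln1, given below, was a large part. Npr3, the clearance receptor for natriuretic peptides and a marker of endocardium, stood at 36.9 CPM in control members (exact Poisson interval 34.2 to 39.9) and 3.67 CPM in knockout members (2.89 to 4.59). Bmp6, a BMP ligand of the endocardium, stood at 21.5 CPM (19.4 to 23.7) and 2.37 CPM (1.75 to 3.13). For both, control and knockout intervals lay far apart, and the log2 ratios were -3.02 and -2.74. Edn1, which encodes the peptide endothelin-1, stood at 41.3 and 8.84 CPM, and Tmem100, a target of BMP9 and BMP10 signalling through Acvrl1, at 23.6 and 6.08 CPM. The forkhead gene Foxc2 stood at 83.5 and 16.8 CPM, and Smad6, which restrains BMP signals inside the cell, at 60.3 and 15.2 CPM. Each of these 6 genes was seen in a larger share of control than of knockout members at 15000 UMIs, from 22.8% against 3.17% for Bmp6 to 67.4% against 22.2% for Foxc2. In the remaining cells, Bmp6 was seen in 2.74% and 1.46%, and Foxc2 in 8.9% and 1.42%, of thinned control and knockout cells.

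The heart GATA genes were lower as well, with a difference. Gata4 stood at 37.6 CPM in control and 8.55 CPM in knockout members, and Gata5 at 29.7 and 4.83 CPM. Gata5 was carried by few control cells: 13.3% of thinned control members had a UMI. These 2 genes were also lower in the remaining cells, where Gata4 stood at 144 and 42.4 CPM and Gata5 at 166 and 34.5 CPM. Not every gene of the list was lower. Nfatc1, the transcription factor of valve endocardium, stood at 17.2 and 18 CPM with overlapping intervals, 15.3 to 19.3 and 16.2 to 19.9. The neuregulin gene Nrg1 stood at 29.6 and 26.4 CPM. Hapln1, a link protein of cardiac jelly, was higher in knockout members (807 against 413 CPM), and so was the transcription factor gene Tbx3, at 39.3 against 21.7 CPM.

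**Figure D2:**
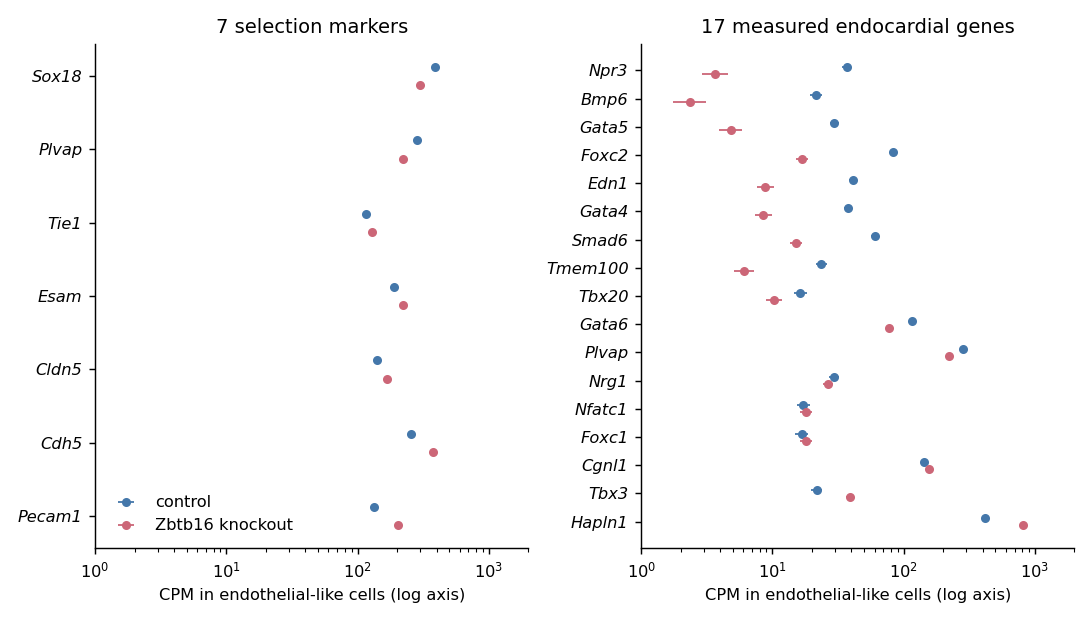
CPM (log axis) of the 7 selection markers and of the 17 measured endocardial genes in control (blue) and Zbtb16 knockout (red) endothelial-like cells, ordered by ratio; bars are exact 95% Poisson intervals and are often smaller than the points. The markers selected the cells and are shown as a description only. Among the endocardial genes Npr3 stood at 36.9 and 3.67 CPM and Bmp6 at 21.5 and 2.37 CPM.

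Markers of cardiomyocytes moved with these genes. The summed level of 16 cardiomyocyte genes was 564 CPM in control members and 55.8 CPM in knockout members, with a median over cells of 154 and 21.8 CPM and a highest cell of 10089 and 1335 CPM. Nppa had no UMI in control members. The tenth of members with the most such UMIs, 29 and 41 cells, held 72.9% and 61.3% of them, and RNA outside cells, from barcodes of 10 to 100 UMIs, carried 2602 and 211 CPM of these genes. All 8 measured cardiomyocyte genes were lower in knockout members, where 4.61% of all genes were. The myosin light chain gene Myl7 stood at 210 and 6.57 CPM, and the troponin genes Tnnt2 and Tnni1 at 68.5 and 5.07 and at 112 and 21.5 CPM. Without the tenth of members richest in cardiomyocyte UMIs the log2 ratio was -3.08 for Npr3, -2.81 for Bmp6, -2.14 for Edn1, -2.44 for Foxc2, -2.23 for Smad6 and -1.73 for Gata5. Without these members 7 of 15 measured endocardial genes were lower and 2 higher, where 357 of all genes were lower and 769 higher. The median of the 15 was -0.43, over fewer genes than the 17 measured in all members.

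Of the lower genes, 7 were also read cell by cell. They were chosen because they were lower in the knockout, so fewer of them per knockout cell follows from that choice and is a description. They were read at 15000 UMIs and were Npr3, Bmp6, Edn1, Tmem100, Foxc2, Smad6 and the arterial connexin gene Gja4. A control member had a median of 3 of the 7 and a knockout member a median of 1. At least 4 of the 7 were seen in 95 control members (33.3%) and in 3 knockout members (0.732%). None of the 7 was seen in 14 control members (4.91%) and in 183 knockout members (44.6%). Whether the genes were found in the same control cells more often than their single shares give was not tested.

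**Figure D3:**
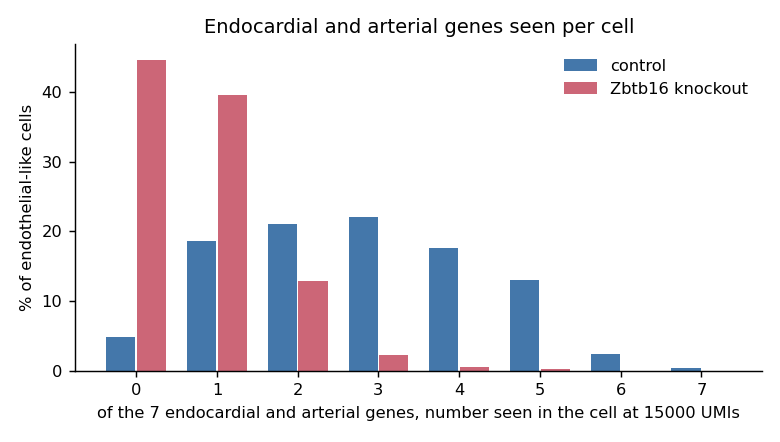
Share of endothelial-like cells (%) by the number of 7 endocardial and arterial genes seen in a cell thinned to 15000 UMIs, for control (blue) and Zbtb16 knockout (red). Knockout cells pile up at 0 and 1 gene, with 44.6% and 39.5%, while control cells spread from 1 to 5 genes.

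Among arterial genes, 3 of 12 measured were lower in the knockout and none higher, where 4.61% of all genes were lower and 10.3% higher. Gja4, connexin 37 of arterial endothelium, stood at 47.3 CPM in control and 10.7 CPM in knockout members. Igfbp3, which binds insulin-like growth factors, stood at 117 and 30.9 CPM. Notch4, an endothelial Notch receptor, stood at 15.3 and 9.42 CPM. Igfbp3 stood at 18.8 and 21.1 CPM in the remaining cells, so its difference lay in the members. Other arterial genes stood nearly level, among them Efnb2, the ephrin-B2 of arteries, at 36.1 and 35.2 CPM and Acvrl1, a BMP9 receptor, at 26.3 and 25.9 CPM. After length correction 5 arterial genes were lower and none higher, against 4.71% and 5.57% of all genes.

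Of 13 measured Notch pathway genes 2 were lower and none higher, where 4.61% and 10.3% of all genes were. With 5 CPM added in place of 1 none of the pathway was lower, while 288 of all genes were, in place of 367. The 2 lower genes with 1 CPM added were Notch4 and the target gene Hes1, at 37.8 and 24 CPM. The receptor gene Notch1 stood at 91 and 78.8 CPM and the feedback inhibitor Nrarp at 94.1 and 66 CPM. Of 9 measured venous and lymphatic genes 2 were higher and 1 lower, against the same 10.3% and 4.61% of all genes. The higher genes were Nrp2, a co-receptor for VEGF-C and semaphorins, at 239 against 70.5 CPM, and Aplnr, the apelin receptor, at 162 against 91.5 CPM. Emcn was lower, at 66.2 against 122 CPM. Ephb4, the venous ephrin receptor, stood at 70.5 and 66.6 CPM, and Flt4, the receptor of VEGF-C, at 31.9 and 39.6 CPM. After length correction 2 venous and lymphatic genes were higher and 2 lower, against 5.57% and 4.71% of all genes.

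Of 20 measured BMP and TGF-beta pathway genes 5 were lower and 3 higher, where 4.61% and 10.3% of all genes were. The lower genes included the ligand Bmp6, the inhibitors Smad6 and Smad7 and the target gene Id1. Smad7 stood at 91.8 CPM in control and 57.8 CPM in knockout members, and Id1, an inhibitor of DNA binding that BMP signals induce, at 562 and 292 CPM. Id3, a target of the same kind, stood at 713 and 501 CPM and did not reach 1.5-fold. In the remaining cells Smad7 stood at 123 and 157 CPM and Id1 at 418 and 299 CPM. The receptor genes that were higher were Tgfbr1, at 34.9 against 19.3 CPM, Tgfbr2, at 24.5 against 15.1 CPM, and Tgfbr3, at 42.7 against 21.4 CPM. After length correction 1 gene of the pathway was higher and 5 were lower, against 5.57% and 4.71% of all genes. The BMP receptor genes Bmpr1a, at 45.1 and 45.7 CPM, and Bmpr2, at 40.5 and 55 CPM, were between.

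Among receptor genes for VEGF and adrenomedullin, Kdr and Calcrl were higher in the knockout. Kdr, the main signalling receptor of VEGF-A, stood at 289 CPM in control and 522 CPM in knockout members. Flt1, the decoy receptor of VEGF-A, stood at 189 and 190 CPM. Of 10 measured VEGF pathway genes 2 were higher, Kdr and Nrp2, and none was lower, against 10.3% and 4.61% of all genes. After length correction Kdr fell just under the limit, with a log2 ratio of 0.57, and 1 of the 10, Nrp2, was higher. As 5.57% of all genes were higher there, no difference of the list from the background can be read from this count. Kdr was also higher in remaining knockout cells, at 32.5 against 12.6 CPM. Calcrl, the adrenomedullin receptor, stood at 62.7 and 144 CPM, while its partner gene Ramp2 stood at 1018 and 1202 CPM. The adhesion receptor gene Adgrl4 stood at 39.6 and 90.9 CPM. Of the 28 measured surface and junction genes 5 were higher and 1 lower, against backgrounds of 10.3% and 4.61%. This balance depended on the cells. Without the tenth of members with the most UMIs 3 were higher and 4 lower, against 9.66% and 4.3% of all genes. Among members with Mest under 200 CPM 6 of 29 were higher and 5 lower, against 13.9% and 5.26%.

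Transcription factor genes of the endothelium were mostly between the limits. Over all genes 10.3% were higher and 4.61% lower, and 5.57% and 4.71% after length correction. Of 13 measured ETS genes 2 were higher and 3 lower, and 1 and 3 after length correction. Erg stood at 48.6 CPM in control and 68.5 CPM in knockout members and Fli1 at 270 and 229 CPM. Etv2, the early factor that starts the endothelial programme, was lower at 40.2 against 74.3 CPM, and so were Etv4, at 8.11 against 16.3 CPM, and Elf1, at 12.8 against 24.4 CPM. The higher genes were Ets2, at 101 against 65.8 CPM, and Gabpa, at 38 against 20.3 CPM. Of 26 other endothelial factor genes 2 were higher and 4 lower, 1 and 6 after length correction, and none and 4 with at most 5% mitochondrial UMIs. Under that last limit 848 of all genes were higher and 363 lower. Sox7 stood at 55.3 and 54.6 CPM, Sox17 at 127 and 101 CPM, Lyl1 at 55.5 and 53.7 CPM and Bcl6b at 71.2 and 76.5 CPM. Besides Foxc2 the lower genes were Gata2, a factor of haemogenic endothelium, at 32 against 50.7 CPM, and the homeobox genes Meis1, at 27.2 against 54.8 CPM, and Meis2, at 35.3 against 89.9 CPM. Meis1 was also lower in remaining knockout cells, at 41.4 against 120 CPM, whereas Meis2 stood at 147 and 139 CPM there.

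Of 13 measured flow-responsive genes 5 were lower and 2 higher, where 4.61% and 10.3% of all genes were. Sgk1, a serum and glucocorticoid regulated kinase gene, stood at 211 CPM in control and 65.8 CPM in knockout members, and Dusp1, a phosphatase of MAP kinases, at 87.9 and 55.1 CPM. Klf2, the factor that shear stress induces, was higher at 156 against 100.4 CPM, and so was the mechanosensitive channel gene Piezo1, at 57.9 against 36.1 CPM. Neither reached 1.5-fold without the tenth of members with the most UMIs. There 5 genes of the list were lower and none higher, against 4.3% and 9.66% of all genes. After length correction 4 were lower and 1 higher, against 4.71% and 5.57%. Nos3, the endothelial nitric oxide synthase, stood at 34.2 and 38.2 CPM. Genes named by size alone also included Ckb, a creatine kinase, at 90.7 and 14.4 CPM, Exoc3l4 at 98 and 29.4 CPM, Tnfaip2 at 139 and 42.3 CPM and Cyp26a1, which breaks down retinoic acid, at 90.1 and 27.3 CPM. Clps, the colipase gene, fell below the level for named genes and was picked after its values were seen: it stood at 39.5 CPM in control members and 0.0966 CPM, 2 UMIs, in knockout members, and at 33.4 and 0.267 CPM in remaining cells.

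Of 13 measured basement membrane genes 6 were higher in the knockout members and 1 was lower, with a median log2 ratio of 0.53. Over all genes 10.3% were higher and 4.61% lower. The collagen IV genes Col4a1 and Col4a2, which form the network of the basement membrane, stood at 210 and 329 CPM and at 93.5 and 168 CPM in control and knockout members. Col18a1, the source of endostatin, stood at 238 and 426 CPM, the laminin gene Lama4 of vessel walls at 20.3 and 59 CPM and Fn1, fibronectin, at 301 and 553 CPM. These are long transcripts, and after length correction 2 of the 13 were higher and 1 lower, with a median of 0.32. After that correction 5.57% of all genes were higher and 4.71% lower. In remaining cells Col4a1 stood at 69.4 and 126 CPM and Fn1 at 366 and 965 CPM, so the direction was not particular to the members. Of 10 measured integrin genes 3 were higher and 1 lower, against the same 10.3% and 4.61% of all genes. Itgb1, the common beta subunit, stood at 285 and 463 CPM.

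Among genes of at least 30 CPM, the 12 with the largest ratios in the higher direction were also at least 1.5-fold higher in remaining knockout cells. Igf2, the imprinted growth factor gene, stood at 478 CPM in control and 2084 CPM in knockout members, and at 568 and 2351 CPM in remaining cells. Among replication-dependent histone genes, Hist1h1e stood at 44.8 and 197 CPM and Hist1h1b at 86.3 and 285 CPM in members, and at 40 and 156 CPM and 80.6 and 238 CPM in remaining cells. Of 15 measured linker and core histone genes 8 were higher and 1 lower, where 10.3% and 4.61% of all genes were. Lrpprc, Wdr36, Tfrc, Tasor2 and Zfp711 had log2 ratios of 1.55 to 1.93 in members. Sall3, a zinc finger gene, stood at 16.6 CPM in control and 51.8 CPM in knockout members, and at 2.38 and 4.33 CPM in remaining cells. Ahnak, a large scaffold protein gene, stood at 35.7 and 124 CPM. Below that level H19 had a larger ratio than Igf2, 2.66 against 2.12 on the log2 scale, at 3.5 and 27.5 CPM.

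Next, the ratio of knockout to control in members was set against that in the remaining cells, for 7454 genes with a mean of at least 10 CPM in both. The ratio was above that of the remaining cells by at least 1.5-fold for 158 genes (2.12%) and below it for 308 genes (4.13%). These differences describe the libraries, and the make-up of the remaining cells also differs between them: the 16 cardiomyocyte genes summed to 2762 CPM in remaining control cells and 227 CPM in remaining knockout cells. Mef2c, a factor of both heart muscle and endothelium, had the largest difference among the genes with at least 30 CPM. It stood at 213 and 221 CPM in control and knockout members, and at 298 and 26.4 CPM in the remaining cells. Nr2f2, the COUP-TFII of veins and atria, stood at 112 and 142 CPM in members and 70.5 and 15.4 CPM in remaining cells. Cbfa2t3, a corepressor gene of blood and endothelium, stood at 68.3 and 62.7 CPM against 80.2 and 13.5 CPM. So these 3 genes were nearly level or slightly higher in knockout members where remaining knockout cells had little of them. The next 5 genes in that direction, Flrt2, Car14, Rcsd1, Fbn2 and Tspan13, had differences of 1.48 to 2.04.

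In the other direction stood Dcaf12l1, Gas6, Smad6, Stmn2, Klf6, Tgfbr3, S100a6 and Nid1. Smad6 stood at 60.3 and 15.2 CPM in members but at 81.5 and 73.2 CPM in remaining cells, a difference of log2 ratios of -1.77. Gas6, a ligand of TAM receptors, stood at 73.3 and 69.6 CPM in members and at 43.2 and 154 CPM in remaining cells. Klf6 stood at 109 and 109 CPM in members and 78.5 and 212 CPM in remaining cells, so for these genes the remaining cells carried the difference. S100a6, a calcium-binding protein gene, was lower in members at 41.3 against 119 CPM, and stood at 265 and 244 CPM in remaining cells.

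**Figure D4:**
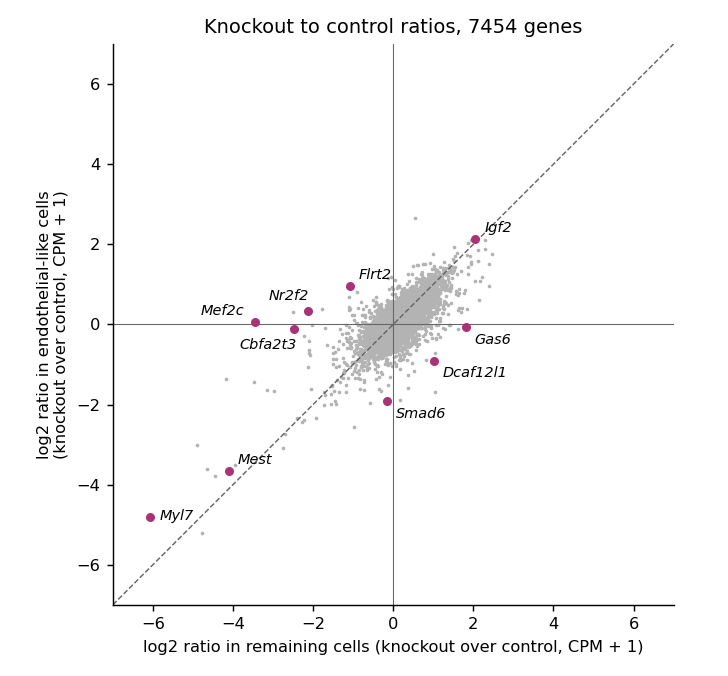
Log2 ratio of knockout to control (CPM + 1) in endothelial-like cells against that in remaining cells for 7454 genes; the dashed line marks equal ratios. Mef2c, Nr2f2 and Cbfa2t3 lie far left of the line near 0 on the vertical axis, Smad6 lies below it, and Igf2 and Mest lie close to it.

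Imprinted genes, expressed from 1 parental copy, differed in both directions: of 22 measured, 5 were higher and 4 lower in knockout members, where 10.3% and 4.61% of all genes were. Mest, active on the paternal copy in mesoderm, had 2005 CPM in control and 158 CPM in knockout members. Igf2, H19, Peg3, Peg10 and Igf2r were higher, Peg10 at 188 against 77.6 CPM and Igf2r, which clears IGF2, at 276 against 109 CPM. Cdkn1c, a cell cycle inhibitor gene, was lower at 119 against 298 CPM, as were Ndn, at 88 against 145 CPM, and Phlda2, at 41 against 81.7 CPM. Meg3 stood at 612 and 615 CPM.

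Mest was on in far fewer knockout than control members, and its level in those cells differed less. With a limit of 200 CPM per cell, set after the values were seen, Mest was on in 234 of 285 control members (82.1%, Clopper-Pearson interval 77.2 to 86.4) and in 28 of 410 knockout members (6.83%, 4.59 to 9.72). Cells with Mest on had a median of 2370 CPM (control) and 2450 CPM (knockout), and their summed UMIs gave 2344 CPM (2319 to 2368) and 1866 CPM (1802 to 1932). Of the cells with Mest off, 333 of 382 in the knockout and 12 of 51 in the control had no Mest UMI, and the off cells of the control had a median of 24.0 CPM. By summed UMIs the off cells stood at 37.0 CPM (control) and 3.26 CPM (knockout). The limit hardly mattered in the members, since 6 control members and no knockout member lay between 100 and 400 CPM. Among remaining cells Mest was on in 74.1% (control) and 4.51% (knockout). Of these cells, 631 of 6069 in the control and 20 of 9039 in the knockout lay between 100 and 400 CPM. The limit thus split the remaining control cells less clearly.

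The 28 knockout members with Mest on stood close to the other knockout members in most genes. They had no Zbtb16 UMI (upper Poisson limit 2.15 CPM), where the control members with Mest on stood at 19.6 CPM of Zbtb16. Their Igf2 stood at 1886 CPM, against 2101 CPM in knockout members with Mest off and 486 CPM in control members with Mest on. Npr3 stood at 2.33 and 3.79 CPM in knockout members with Mest on and off, Cdh5 at 378 and 377 CPM, and Kdr at 558 and 519 CPM. Of 4666 genes compared between knockout members with Mest on and off, 16 were higher and 7 lower by at least 1.5-fold.

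The genes that did differ with Mest included other imprinted genes. Plagl1, an imprinted zinc finger gene, stood at 67.1 CPM (55.4 to 80.5) in knockout members with Mest on and 1.79 CPM (1.24 to 2.50) in those with Mest off, with a UMI in 60.7% and 6.54% of cells. Of 11 knockout members with at least 5 Plagl1 UMIs, 10 had Mest on. Grb10, an imprinted adaptor of insulin and IGF receptors, went the other way, at 123 CPM (107 to 141) against 284 CPM (276 to 292), with a UMI in 57.1% and 90.6% of cells. H19, the imprinted long RNA next to Igf2, stood at 185 and 13.3 CPM, but rested on few cells: 11 knockout members with at least 5 UMIs, 5 of them with Mest on, held 553 of its 570 UMIs. Peg3 stood at 2911 and 1919 CPM, and Nnat at 17.5 and 4.26 CPM. Copg2, the neighbour of Mest on the opposite strand, picked after its values were seen, stood at 35.0 and 56.0 CPM with Mest on and off in the knockout and at 34.9 and 62.4 CPM in the control. Copg2 thus was lower beside active Mest in both libraries; reads of the 2 genes cannot be told apart if the counting did not use the strand.

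**Figure D5:**
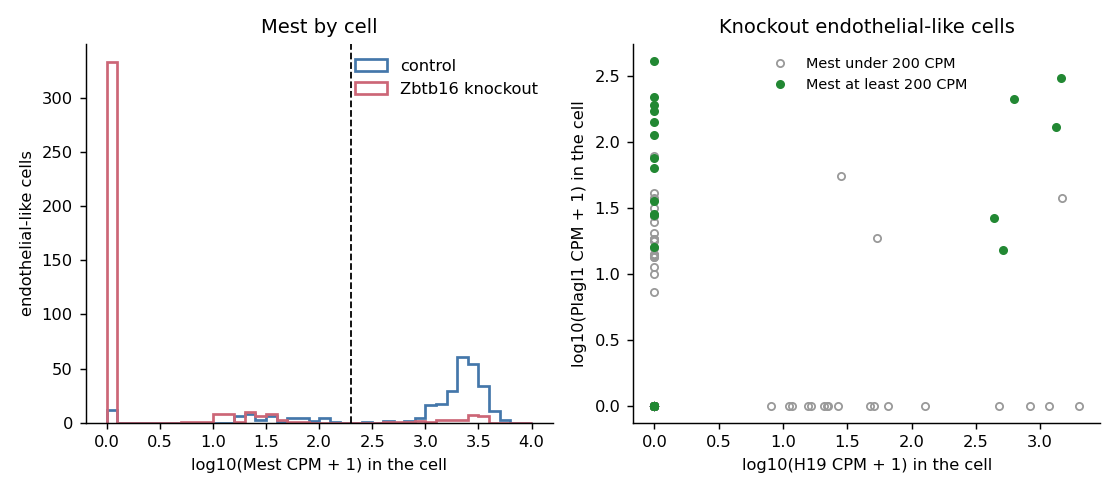
Left, number of endothelial-like cells by log10 of Mest CPM + 1, with control in blue, knockout in red and the limit of 200 CPM dashed; right, Plagl1 against H19 (log10 of CPM + 1) in each knockout endothelial-like cell, with Mest on in green and off in grey. Mest is on in 28 knockout cells, and 10 of the 11 cells with at least 5 Plagl1 UMIs are among them.

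The same contrast was read in the remaining knockout cells, which the selection of members did not use, with Mest on in 408 cells and off in 8631. Plagl1 stood at 169 and 12.9 CPM, Grb10 at 164 and 524 CPM, H19 at 94.96 and 9.49 CPM and Nnat at 91.2 and 20.8 CPM with Mest on and off. Each of these differences had the direction seen in the members, over a mixture of cell types. In remaining control cells, which the limit split less clearly, Plagl1 and Grb10 were nearly level, at 1.85 and 1.47 CPM and at 431 and 447 CPM. H19 stood at 10.4 and 3.24 CPM there. Control members with Mest on and off had Grb10 at 236 and 203 CPM and Plagl1 at 0.728 and 0.385 CPM.

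The endocardial genes were read again within members with Mest off only, 51 control and 382 knockout cells. The log2 ratio of knockout to control was -2.83 for Npr3, -3.43 for Bmp6, -2.05 for Edn1, -2.41 for Foxc2 and -2.03 for Smad6, so these 5 stayed past 1.5-fold. The median of the endocardial list was -0.74 over 15 measured genes. Gata5 turned, with a ratio of 1.07: control members stood at 34.5 CPM of it with Mest on and 1.93 CPM with Mest off. The cardiomyocyte gene Tnnt2 stood at 77.2 and 18.1 CPM in control members with Mest on and off. Markers of other cell types moved with this restriction. The median log2 ratio of the mesenchymal list went from 0.39 (3 of 6 measured genes higher) over all members to 1.94 (4 of 5 higher). That of the cardiomyocyte list went from -3.27 over 8 measured genes to -1.60 over 3, so these medians cover different genes. That of the endothelial-to-mesenchymal transition list went from 0.05 to 1.03, with 9 of 15 higher in place of 3 of 16. Of 20 G2/M genes 7 were higher, and the ratio of Ahnak went from 1.77 to 3.73. Over all genes 13.9% were higher and 5.26% lower among these cells. The part of the other cell types in these ratios was not tested. At a narrower depth, with all 7 markers and 30000 to 80000 UMIs (183 control and 195 knockout cells), the ratio of Npr3 was -3.10, of Bmp6 -2.90 and of Gata5 -1.03.

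Markers of other cell types were seen in the members at levels that differed by type. The mesenchymal genes had the highest sum in knockout members, and the cardiomyocyte genes in control members. The 12 mesenchymal genes summed to 219 CPM in control and 335 CPM in knockout members, against 1066 and 2379 CPM in remaining cells, with a median over members of 127 and 154 CPM and a highest cell of 1905 and 3827 CPM. Among them Twist1 stood at 103 and 94.3 CPM and Postn, a matricellular protein gene, at 1.13 and 14.2 CPM, against 20.3 and 169 CPM of Postn in remaining cells. The 8 neural genes summed to 92.6 and 104.6 CPM in members, above the 40.7 and 53.7 CPM of remaining cells, and 251 of 285 control and 382 of 410 knockout members lay above the median remaining cell; nearly all of it was Nes, the nestin gene, at 88.1 and 99.8 CPM. The 9 erythroid genes summed to 0.621 and 6.13 CPM, with 166 CPM in RNA outside cells of the knockout. The 8 macrophage genes summed to 2.03 and 0.676 CPM, with Ptprc, C1qa and Adgre1 at 0 in both libraries. The 13 endoderm genes other than Sox17 summed to 59.0 and 22.8 CPM. The part of these transcripts in the differences above was not tested.

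Some blood-forming genes and, of 9 listed pluripotency genes, only Dppa4 had a mean of at least 10 CPM in the members. Of 5 measured haemogenic and blood genes 1 was lower, Gata2, where 4.61% of all genes were. Itga2b, the integrin CD41, stood at 33.7 and 38.7 CPM, Kit at 39.5 and 42.3 CPM, and Tal1 at 62.3 and 44.6 CPM. Runx1, the factor of the endothelial-to-haematopoietic transition, stood at 1.47 and 4.44 CPM. Dppa4, a gene of pluripotent cells, stood at 88.2 CPM in control members and 28.1 CPM in knockout members, against 2.62 and 3.90 CPM in remaining cells, while Nanog had 0 UMIs in control and 1 UMI in knockout members.

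Most cell division and glycolysis genes lay between the limits. Over all genes 10.3% were higher and 4.61% lower, and 5.57% and 4.71% after length correction. Of 20 measured genes of G1/S and S phase 1 was higher and none lower, and of 20 measured G2/M genes 4 were higher and none lower, among them Cenpe at 183 against 96.6 CPM; after length correction 2 were higher and 1 lower. Of 18 measured glycolysis genes 2 were higher, Pdk1 at 70.4 against 28 CPM and the glucose transporter gene Slc2a1 at 340 against 187 CPM, and 1 was lower, Ldhb at 32 against 81.2 CPM. The Igf2bp genes, whose proteins bind mRNA and which the series names as linked to Zbtb16, stood at 225 and 336 CPM for Igf2bp1, 129 and 151 CPM for Igf2bp2 and 170 and 193 CPM for Igf2bp3, none past 1.5-fold. Igf2bp1 lay just under that limit, with a log2 ratio of 0.58, and passed it with a UMI minimum of 30000, with at least 4 of the 7 markers and with at most 5% mitochondrial UMIs; after length correction it was 0.19.

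Among themselves, members varied most in a few genes. Over thinned members the Fano factor, the variance over the mean of UMIs, had a median of 1.09 over 5642 genes in the control and 1.09 over 5776 genes in the knockout. In the knockout it was highest for Mest, at 37.9, and H19, at 19.6. In the control it was highest for Actb, at 24.1, Malat1, at 19.6, and Ctla2a, at 16.8, a cysteine protease inhibitor gene that led the genes specific to the members, and then for the cardiac genes Actc1, at 14.9, and Myl7, at 14.8. Actc1 was seen in 7.02% of thinned control members, so its variance came from few cells.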

How the data were processed

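Single-cell libraries were made with the DNBelab C droplet kit and sequenced on the DNBSEQ platform, per the labels' protocols. The deposited matrices hold whole-number UMI counts per gene and barcode, not normalized; the matrix header is in the Cell Ranger 4 format, per the file headers. Cell Ranger, R 4.1.1 and the build GRCm39 (mm39) are named per the submitters' processing notes; for the use of strand in counting nothing was given in the sources used here. Each library holds 32285 features and 308465930 (control) or 357324373 (knockout) UMIs over all barcodes.

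Barcodes with at least 15000 UMIs, 500 genes and at most 10% UMIs of mt- genes were kept; no doublet caller was run. The members and the gene lists were chosen with earlier results of these data known. UMIs were summed over members and over remaining cells of each library and scaled to CPM; log2 ratios used CPM + 1, for genes with a mean of at least 10 CPM in the members. Since the design had 1 library per group, no count model and no test was run; intervals are exact Poisson or Clopper-Pearson at 95% and cover counting error only. Shares marked as thinned used each cell drawn down to 15000 UMIs. Named genes were, in each list, up to 6 with the highest mean CPM and 4 with the largest ratio, the 7 markers, Zbtb16, the Igf2bp genes, Mest and Igf2, the 12 largest ratios in each direction and the 8 largest differences from remaining cells among genes of at least 30 CPM (4613 and 4116 genes), and the 20 genes highest over remaining cells; genes named outside this rule were chosen after their values were seen. Computations used Python 3.11.15 with scipy 1.17.1, pandas 2.3.3 and statsmodels 0.14.6, and edgeR 4.0.16 for the TMM scaling factors of 1 alternative. The computation of the ratio was checked on simulated Poisson counts without variation between cells or libraries. That check does not bear on the threshold in these data. Transcript lengths came from GENCODE M21 for 99.96% of tested genes. Promoter sequences came from RefSeq, build GRCm38.p6, which is not the build of the counts, and were matched by symbol.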

Additional observations from a re-analysis of the deposited data

Results flagged for a closer look

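Of the genes named above for the largest differences from remaining cells, Flrt2 and Dcaf12l1 reversed direction. They differed between the genotypes in opposite directions in endothelial-like and remaining cells, past 1.5-fold in each. No such difference could be tested, with 1 library per group. Flrt2, a membrane protein with leucine-rich repeats, stood at 47.4 CPM in control and 92.6 CPM in knockout endothelial-like cells and at 47.0 and 21.6 CPM in remaining cells, a difference of log2 ratios of 2.04. Dcaf12l1 stood at 49.3 and 25.9 CPM in endothelial-like cells and at 29.3 and 60.2 CPM in remaining cells, a difference of -1.92.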

How the results depend on the processing

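No paired analysis was possible because only 1 library stands in either group. The difference of shares, -0.15 percentage points, was 1.00 with at most 5% of UMIs from mt- genes, where 259 control and 283 knockout members were left; the cause was not tested. The counts of 822 higher and 367 lower genes were 283 and 135 with a mean of at least 50 CPM and 1292 and 885 with a mean of at least 1 CPM, where the number of genes tested differs. Length correction left 443 higher genes and 375 lower. With the other 17 settings, of which the Mest limit and the depth window were chosen after seeing the data, both counts were within 1.5 times. Ratios of 52 single genes were also recomputed: the 12 largest in each direction and genes picked by name. Among the 41 of them past 1.5-fold, 737 of 738 recomputed ratios kept their sign and 727 stayed past 1.5-fold. Since large ratios were chosen, this does not speak for the other called genes. The exception in sign was Gata5, at 1.07 among members with Mest off, where the control members held 5 UMIs of it. The cause was not tested. The endocardial median, -0.62 over 17 measured genes, ranged from -1.16 with equal weight per cell (16 genes) to -0.40 in the depth window (15 genes). Depth limits genes of few UMIs: Npr3 and Bmp6 rest on 76 and 49 UMIs in knockout members.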
